A study of Saccharomyces cerevisiae with 177 samples.

Results

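Depletion of Med14 from budding yeast was followed in 6 libraries of newly made RNA, the Med14_3IAA libraries A, B and C and the Med14_DMSO libraries A, B and C, out of 177 in the whole series. They were taken by their group labels, and the libraries of the separate group Med14C were left out. All 6 came from 1 Saccharomyces cerevisiae strain, SHY1054, in which the MED14 gene product ends in 3xV5 IAA7, a tag, marked with KanMX, that works as a degron. In both groups the strain was MATalpha, carried the alleles ura3D0, trp1D63, met15D0, lys2D0, leu2D0, his3D200 and Dade2::hisG, had an RPB3-3xFlag::NATMX tag, and held pGPD1-OSTIR::HIS3, in which the GPD1 promoter drives the plant auxin receptor. Cells of the Med14_3IAA group received 3-indolacetic acid (3IAA), an auxin that directs a protein with the degron to breakdown, and cells of the Med14_DMSO group received the solvent DMSO. Before treatment cells grew to mid-log phase in synthetic complete medium, at 30 °C, and 4-thioU marked the RNA made in 5 min. The labels used here give neither the length of the 3IAA treatment nor its dose, and no strain without the degron entered the comparison. Whether replicates were separate cultures is not in the labels, so p-values speak only of the spread among these libraries, which may be technical.

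Mediator is a large complex that carries signals from gene-specific activators to RNA polymerase II at promoters. Its head and middle modules contact the polymerase, its tail contacts many activators, and a separable kinase module binds part of the time. Med14, the product of the gene RGR1, runs through the complex as a scaffold that holds the head, the middle and the tail together, and budding yeast cannot grow without it.

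The value of each gene was the authors' deposited signal, already scaled on a basis not given in the sources used here. The Med14_3IAA libraries held about 2591321, 2055116 and 2391491 reads recovered from the steps between low values, and the Med14_DMSO libraries 3775758, 2683236 and 2119024. Loci deleted in the strain were read beside the genotype label. ADE2, LEU2, LYS2, MET17, TRP1 and URA3 were listed at 0 in every Med14_3IAA library and at 0.17 or less in every Med14_DMSO library. Both groups carry these alleles, so the values cannot tell one group from the other. HIS3 was listed at 0 in all 6 libraries, although the genotype label gives HIS3 as the marker beside pGPD1-OSTIR. Genes of the alpha mating type were expressed in the DMSO cells, while MFA1, MFA2, BAR1, AGA2 and ASG7, which mark the other mating type, stayed at 0.86 or less in every library. Of the remaining genes on the list of the other mating type, STE2 reached 2.4, STE6 reached 9.68 and AXL1, which haploids of both mating types express, reached 48.9. The RNA level of RGR1 does not measure the Med14 protein, so these libraries hold no direct check of the depletion.

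On the authors' deposited scale, new RNA of almost every gene was lower after Med14 depletion. A gene was tested where its mean signal over the 6 libraries was at least 10, which left 3543 genes, with 2251 genes below that level. On the deposited scale, as log2 of signal plus 1, 3533 of them were lower in Med14_3IAA (99.7% of the genes tested) and 3 were higher (0.0847%), by limma with Benjamini-Hochberg adjusted p under 0.05. The median log2 change was −1.96, and the genes at the 10th and 90th percentile had −2.74 and −1.31. The fall was more than 2-fold in 3426 genes (96.7%) and more than 8-fold in 218 (6.15%). The median signal of the tested genes was 11.4, 9.62 and 9.82 in Med14_3IAA libraries A, B and C, against 45.9, 38.4 and 46.5 in Med14_DMSO. In 3518 genes every Med14_3IAA library lay below every Med14_DMSO library, in 3 genes above, and in 22 genes the groups overlapped. The 7 genes called in neither direction were REF2, RRN3, PDR12, GAP1, PTI1, CIN1 and DHR2. The summed signal of all genes in Med14_3IAA was 22.8% of that in Med14_DMSO. Signal per recovered read was 0.0253, 0.0269 and 0.0235 in Med14_3IAA libraries A, B and C, against 0.0722, 0.0841 and 0.132 in Med14_DMSO. This factor comes from the authors' scaling and is shared by all genes of a library. The general fall and its 3533 calls thus rest largely on it. Less labelled RNA per cell and fewer cells in a sample cannot be told apart in these bulk values.

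**Figure D1:**
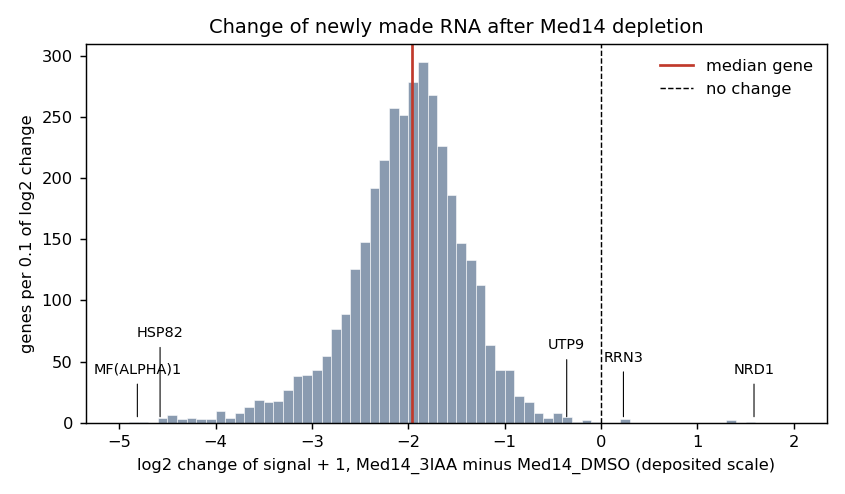
The histogram shows the log2 change of signal plus 1 of 3543 genes, Med14_3IAA minus Med14_DMSO, on the deposited scale, as genes per bin of 0.1. The red line is the median gene at −1.96 and the dashed line marks 0; the distribution lies almost wholly left of 0, with NRD1 at 1.59 and MF(ALPHA)1 at −4.81 near its ends, while UTP9 at −0.36 and RRN3 at 0.23 stand to the right of nearly all genes.

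Because the fall was so general, each gene was also set against the typical gene of its library, by subtracting the library's median log2 value over the tested genes. On this relative scale 1042 genes were higher (29.4%) and 958 were lower (27.0%), and 1543 passed the test in neither direction. The median relative change over all genes tested was 0.02, so a relative change near 0 stands for a deposited fall close to 4-fold. Relative values are given below as log2 change ± standard error (SE), with "rose" and "fell" kept for genes that passed that test, and the deposited change is named as such where it is given. A log2 of signal plus 1 understates the change of genes with signal of a few units, such as STE3 and GPD1 in Med14_3IAA.

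Only NRD1, SER3 and HRP1 were higher on the deposited scale as well. NRD1 (YNL251C, coding region chrXIV:172588-174315), whose product binds RNA and ends the transcription of short transcripts, had a signal of 157, 109 and 103 in Med14_3IAA libraries A, B and C, against 37.4, 39.5 and 42.2 in Med14_DMSO libraries A, B and C, the order used for every signal given below. Its 3 depleted libraries lay far above the controls, with library A highest, at a deposited change of 1.59 ± 0.18 (adjusted p = 1.84e-10) and a relative change of 3.57 ± 0.12. HRP1 (YOL123W, coding region chrXV:87844-89448), which makes a subunit of the cleavage factor at messenger RNA 3′ ends, had 144, 79.7 and 84.2 in Med14_3IAA, against 36.3, 35.8 and 39.4 in Med14_DMSO. Again library A was the highest and the groups did not overlap, at 1.39 ± 0.19 deposited (adjusted p = 1.46e-08) and 3.37 ± 0.16 relative. SER3 (YER081W, coding region chrV:322686-324095), an enzyme of serine synthesis known to be held down by transcription across its promoter, had 60.3, 51.4 and 58.5 in Med14_3IAA, against 18.1, 21.5 and 23.7 in Med14_DMSO. The depleted values were all over 2 times the control values, at 1.39 ± 0.16 deposited (adjusted p = 8.44e-10) and 3.37 ± 0.13 relative.

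NRD1 and HRP1 are known to limit their own output by early termination, in which the polymerase stops soon after the start of the gene. In a list of 13 genes known or reported to be controlled by early termination or by transcription over their promoter, 12 were tested, and 7 rose and 2 fell relative to the median gene, against 29.4% and 27.0% of all genes tested. The median relative change of the list was 0.59. NRD1, HRP1 and SER3, already named for their high values, are among the 7. The count and the median include them and are therefore no separate support. The other risen members were URA8, a CTP synthase (1.64 ± 0.11), PCF11, a cleavage factor subunit (1.39 ± 0.12), SEN1, a helicase that acts with Nrd1 (0.76 ± 0.07), and URA2, the first enzyme of pyrimidine synthesis (0.22 ± 0.07). The call of URA2 was lost without any one of the Med14_3IAA libraries B and C or the Med14_DMSO libraries B and C (relative change 0.19 to 0.22). Members of the list did not move together. ADE12 (−0.88 ± 0.14) and IMD3 (−0.52 ± 0.09), both of purine nucleotide synthesis, fell, while NAB3, the partner of Nrd1, had −0.02 ± 0.08, IMD2 0.42 ± 0.27 and LEU4 −0.39 ± 0.19. IMD2 and LEU4 passed only with the replicate block (adjusted p = 0.0123 and 0.00108 by limma). TIR1 was below the filter, with a signal of 1.57, 2.87 and 4.37 in Med14_3IAA, against 4.19, 9.93 and 10.02 in Med14_DMSO.

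The genes that rose most relative to the median gene, beyond those 3, were REF2, RRN3, PDR12, GAP1, PTI1, CIN1, DHR2, TRF5 and URA8. REF2, a subunit of the cleavage and polyadenylation factor, had a signal of 16.5, 12.4 and 14.1 in Med14_3IAA, against 12.2, 10.7 and 12.8 in Med14_DMSO. PTI1, another subunit of that factor, had 21.7, 14.8 and 15.7 in Med14_3IAA, against 18.5, 15.4 and 22.1 in Med14_DMSO. Their depleted and control values overlapped on the deposited scale, where nearly every other gene had separated, and their relative changes were 2.23 ± 0.09 and 1.88 ± 0.11. RRN3 (YKL125W, coding region chrXI:208247-210130), the factor that brings RNA polymerase I to the ribosomal DNA, had 24.9, 22.7 and 27.3 in Med14_3IAA, against 18.9, 21.2 and 23.2 in Med14_DMSO. Its deposited change of 0.23 ± 0.16 did not pass the test (adjusted p = 0.149) and its relative change was 2.22 ± 0.13 (adjusted p = 3.06e-06). DHR2, a helicase of ribosome assembly, had 9.18, 9.89 and 12.7 in Med14_3IAA, against 11.6, 13.5 and 12.1 in Med14_DMSO. TRF5, a poly(A) polymerase of nuclear RNA surveillance, had 21.4, 20.2 and 20.1 in Med14_3IAA, against 23.6, 25.99 and 28.6 in Med14_DMSO. Both were close to their control level, with relative changes of 1.76 ± 0.18 and 1.66 ± 0.11. The remaining members of this group of high values were CIN1, a tubulin folding factor (1.82 ± 0.10), and 2 membrane transporters that varied between replicates.

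The 2 transporters were PDR12, an efflux pump for weak acids, and GAP1, the general amino acid permease. PDR12 had 137, 45.4 and 57.8 in Med14_3IAA, against 107, 39.4 and 52.1 in Med14_DMSO. Library A was the highest within each group, so the spread between replicates was larger than the difference between groups on the deposited scale, while the relative change was 2.22 ± 0.37 (adjusted p = 9.77e-04). GAP1 had 22.9, 43.2 and 33.9 in Med14_3IAA, against 33.5, 33.5 and 33.2 in Med14_DMSO, with a relative change of 1.94 ± 0.24. Its 3 control values were almost equal and the depleted values lay on both sides of them.

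Because REF2, PTI1, HRP1, RRN3 and TRF5 came from a few complexes, the subunits of these complexes were read out in 3 lists. These lists were made after the values were seen and therefore have no test as lists, and the counts given here leave out those 5 genes. Of the other cleavage and polyadenylation factors 14 were tested, 8 rose and 0 fell relative to the median gene, against 29.4% and 27.0% of all genes tested, with a median of 0.34. RNA14 (1.63), PCF11 (1.39) and YSH1 (0.94), the endonuclease, were among them, while PAP1, the poly(A) polymerase, had −0.22 ± 0.10. Of the other RNA polymerase I initiation factors 4 were tested and 3 rose, with RRN11 at 1.35 and RRN6 at 1.06, and RRN9 had 0.16 ± 0.11. Of the TRAMP and nuclear exosome subunits, which tail and degrade nuclear RNA, 15 were tested beside TRF5, 12 rose and 0 fell, with a median of 0.63. AIR1 (1.09) and RRP40 (0.92) rose, and RRP43 had −0.14 ± 0.08.

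At the other end stood the genes whose new RNA fell furthest. MF(ALPHA)1 (YPL187W, coding region chrXVI:193648-194145), the gene of the alpha-factor pheromone, had a signal of 8.3, 7.15 and 8.06 in Med14_3IAA, against 295, 208 and 244 in Med14_DMSO. The groups were separated by a wide gap, and the deposited change of −4.81 ± 0.17 and the relative change of −2.83 ± 0.10 were the most negative of the named genes on each scale (relative adjusted p = 4.76e-07). STE3 (YKL178C, coding region chrXI:113215-114627), the receptor for the pheromone of the other mating type, had 2.3, 2.69 and 2.51 in Med14_3IAA, against 73.7, 78.8 and 90.7 in Med14_DMSO. Its depleted values were a few units in all 3 libraries, with a relative change of −2.56 ± 0.13. PRY3, a cell wall protein of daughter cells, had 2.61, 2.82 and 2.54 in Med14_3IAA, against 87.1, 86.6 and 115 in Med14_DMSO. DSE2, a daughter-specific glucanase, had 6.1, 4.43 and 5.4 in Med14_3IAA, against 154, 119 and 168 in Med14_DMSO. Both belonged to the genes switched on in daughter cells after division, and their relative changes were −2.74 ± 0.12 and −2.56 ± 0.09.

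HSP82 (YPL240C, coding region chrXVI:96496-98625), the heat-inducible Hsp90 chaperone, had 9.54, 7.68 and 6.58 in Med14_3IAA, against 253, 174 and 210.1 in Med14_DMSO. It fell by 2.59 on the log2 scale relative to the median gene (SE 0.11, adjusted p = 7.28e-07). GPD1 (YDL022W, coding region chrIV:411825-413000), an enzyme of glycerol synthesis needed in osmotic stress, had 2.35, 2.04 and 1.97 in Med14_3IAA, against 92.3, 52.4 and 71.95 in Med14_DMSO, a relative change of −2.53 ± 0.14. MRH1, a plasma membrane protein, had 20.03, 8.79 and 11.2 in Med14_3IAA, against 391, 224 and 325 in Med14_DMSO. SAM2, which makes S-adenosylmethionine, had 11.8, 5.19 and 7.92 in Med14_3IAA, against 247, 143 and 208 in Med14_DMSO. In these last 2 genes library A was the highest within each group, and the relative changes were −2.51 ± 0.21 and −2.47 ± 0.20. ZRT1, the high-affinity zinc transporter, had 38.3, 32.99 and 37.4 in Med14_3IAA, against 987, 642 and 889.8 in Med14_DMSO, where it was one of the strongest signals. Its relative change was −2.49 ± 0.10. YNL134C (−2.51 ± 0.09), YDL124W (−2.45 ± 0.11) and AFB1 (−2.43 ± 0.10), the a-factor barrier of alpha cells, completed the 12 largest relative falls. All 12 were separated between the groups in every library, which the rule that chose them required on the relative scale.

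**Figure D2:**
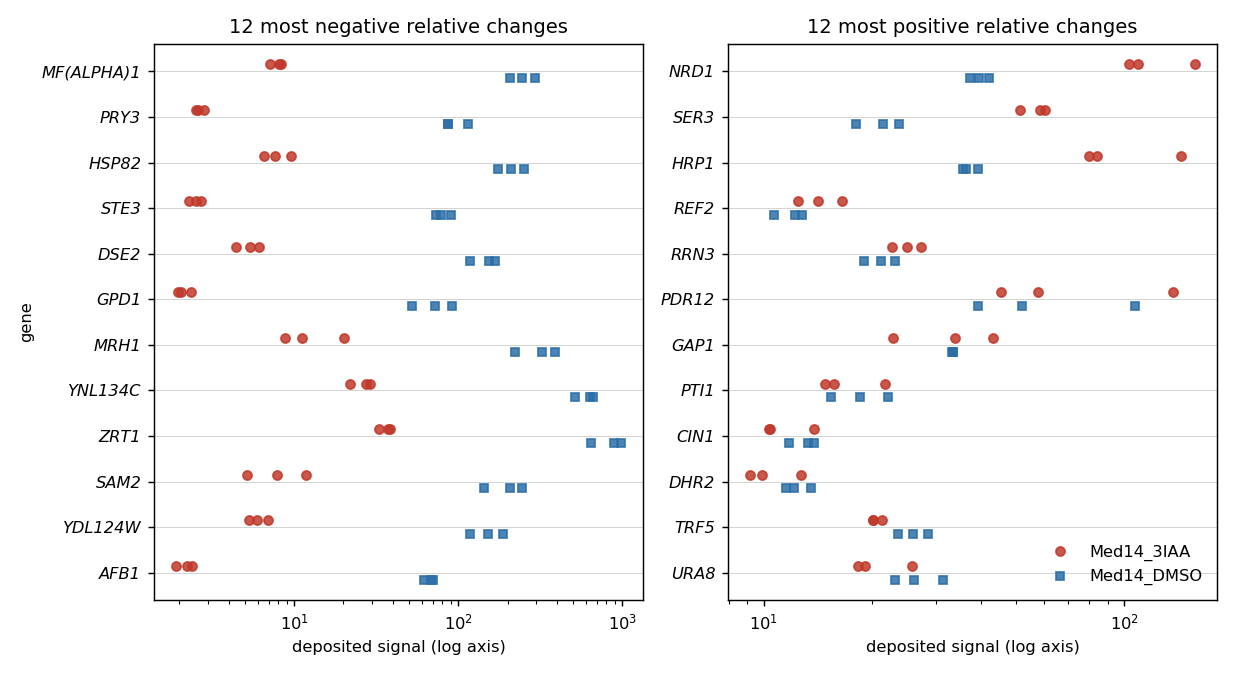
Each point is the deposited signal of 1 library on a log axis, red circles for Med14_3IAA and blue squares for Med14_DMSO (3 libraries each). On the left are the 12 genes with the most negative relative change, from MF(ALPHA)1 to AFB1, where the groups lie far apart. On the right are the 12 with the most positive one, where NRD1, SER3 and HRP1 are higher in Med14_3IAA, and the groups of the other genes lie close together or overlap.

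The bases upstream of 8 genes are shown as examples, and no test rests on them. Among the genes that fell furthest they are the pheromone gene, the pheromone receptor of alpha cells, a chaperone and a stress enzyme. Among those that rose they are NRD1, SER3, RRN3 and UTP9. Each line gives the window from 200 to 91 bases before the coding start, 5′ to 3′ on the gene's own strand, from the RefSeq reference of the R64 build (sacCer3). Capitals mark matches to a TATA box, where the general factor TBP binds, and to PAC, a motif found upstream of many ribosome assembly genes, on either strand.
MF(ALPHA)1 chrXVI:193448-193557 (plus strand): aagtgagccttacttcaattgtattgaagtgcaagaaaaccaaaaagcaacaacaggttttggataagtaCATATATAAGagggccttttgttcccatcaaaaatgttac
STE3 chrXI:114718-114827 (minus strand): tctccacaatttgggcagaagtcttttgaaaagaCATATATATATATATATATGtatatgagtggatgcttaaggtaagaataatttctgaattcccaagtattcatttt
HSP82 chrXVI:98716-98825 (minus strand): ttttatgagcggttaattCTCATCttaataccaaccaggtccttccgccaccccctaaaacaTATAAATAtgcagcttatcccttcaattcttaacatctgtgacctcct
GPD1 chrIV:411625-411734 (plus strand): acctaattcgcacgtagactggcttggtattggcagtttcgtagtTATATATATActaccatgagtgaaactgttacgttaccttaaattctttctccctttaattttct
NRD1 chrXIV:174406-174515 (minus strand): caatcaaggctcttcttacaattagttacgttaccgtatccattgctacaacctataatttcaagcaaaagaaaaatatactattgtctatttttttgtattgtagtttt
SER3 chrV:322486-322595 (plus strand): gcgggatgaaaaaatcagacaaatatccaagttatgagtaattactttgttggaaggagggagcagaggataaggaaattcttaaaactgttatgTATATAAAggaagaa
RRN3 chrXI:208047-208156 (plus strand): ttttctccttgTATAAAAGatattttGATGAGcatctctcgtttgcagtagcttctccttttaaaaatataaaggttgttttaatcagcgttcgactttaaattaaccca
UTP9 chrVIII:491731-491840 (plus strand): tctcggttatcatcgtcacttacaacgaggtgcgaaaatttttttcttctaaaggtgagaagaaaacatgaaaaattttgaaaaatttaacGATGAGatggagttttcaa
All 4 genes that fell held a TATA box match in this window, and HSP82 held a PAC match as well, on the other strand. SER3 and RRN3 also held a TATA box match, RRN3 and UTP9 held PAC, and NRD1 held neither here. In the whole 250 bases before the coding start, 6 of the 12 largest falls and 7 of the 12 largest rises held a TATA box match, and 3 and 5 held PAC. Over all genes tested, 33.5% of these windows held a TATA box match and 17.6% held PAC. A match describes the letters of this window only and is not a measurement of binding.

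Genes of Mediator itself were spread around the typical gene. Of its 25 genes 14 were tested, with a median relative change of 0.04, and 4 rose and 2 fell, which for the rises is close to the 29.4% of all genes tested. RGR1 (YLR071C, coding region chrXII:275378-278626), the gene of Med14, had 32.7, 27.4 and 25.4 in Med14_3IAA, against 84.01, 79.2 and 93.8 in Med14_DMSO. All 3 depleted values were under the controls, but the fall was smaller than that of the median gene, at −1.56 ± 0.17 deposited and 0.42 ± 0.08 relative (adjusted p = 0.00240). In the tail, NUT1 (0.48 ± 0.09) and SIN4 (0.42 ± 0.08) rose and GAL11, the gene of Med15, fell (−0.49 ± 0.14, adjusted p = 0.0171), with MED2 at −0.16 ± 0.15 and PGD1 at 0.24 ± 0.11. GAL11 no longer passed without Med14_3IAA library B (−0.38) or library C (−0.43). In the middle, MED1 rose (0.69 ± 0.09), while SRB7 had 0.08 ± 0.12 and MED7 0.10 ± 0.14. In the head, SRB4, the gene of Med17, had 13.6, 10.4 and 10.6 in Med14_3IAA, against 53.2, 46.5 and 59.4 in Med14_DMSO, a relative change of −0.13 ± 0.08, and ROX3 had −0.10 ± 0.12. In the kinase module SSN2 fell (−0.48 ± 0.12), SSN3 had −0.26 ± 0.14 and SRB8 0.01 ± 0.13. The 11 Mediator genes under the filter were MED6, MED8, MED11, SRB5, SRB2 and SRB6 of the head, MED4, CSE2, NUT2 and SOH1 of the middle and SSN8 of the kinase module. Their signal ran from 0.59 to 4.43 in Med14_3IAA and from 4.04 to 16.5 in Med14_DMSO.

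The polymerase and its general factors lay above the typical gene. Of the RNA polymerase II subunits 11 were tested, and 10 rose and 0 fell, with a median relative change of 0.53. For this list and those that follow, 29.4% of all genes tested rose and 27.0% fell. RPB4, which forms the stalk of the enzyme, had 13.5, 10.9 and 10.2 in Med14_3IAA, against 31.1, 29.4 and 27.8 in Med14_DMSO, at 0.70 ± 0.11, and RPB5 was the lowest at 0.30 ± 0.12, which passed only with the replicate block (adjusted p = 0.0346 by limma). Of 16 general transcription factor genes tested, 8 rose and 0 fell (median 0.22, and 0.13 without Med14_3IAA library A), with RAD3 (1.30 ± 0.09) and SSL2 (1.02), the TFIIH helicases, highest, and SSL1 at −0.13 ± 0.12. Of 11 TFIID subunits 5 rose and 0 fell (median 0.23), from TAF6 at −0.04 ± 0.09 to TAF3 at 0.72 ± 0.10. In SAGA, a coactivator that acts beside Mediator, 5 of 10 rose and 2 fell (median 0.11). HFI1 was highest (0.69 ± 0.11) and GCN5, its acetyltransferase, lowest (−0.44 ± 0.12), although the call of GCN5 was lost without Med14_DMSO library C (−0.38).

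Genes that build ribosomes rose almost as a whole against the typical gene. Of the ribosome biogenesis genes 100 were tested, and 90 rose and 0 fell, against 29.4% and 27.0% of all genes tested. Their median relative change was 0.77 and their median deposited change −1.22. UTP9 (YHR196W, coding region chrVIII:491931-493658), a subunit of the small-subunit processome, had 36.1, 28.7 and 32.5 in Med14_3IAA, against 35.2, 41.5 and 49.3 in Med14_DMSO. The groups overlapped, since the depleted library A lay above the control library A, and the relative change was 1.63 ± 0.13. UTP6 (1.55), MRD1 (1.40), UTP25 (1.27) and UTP15 (1.24) followed, and the lowest member was NOP6 (−0.14 ± 0.12).

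The polymerases that serve ribosome synthesis moved in the same direction. Of 15 genes for RNA polymerase I and III subunits, 13 rose and 0 fell (median 0.72). RPA190, the largest subunit of RNA polymerase I, had 150.2, 128 and 135 in Med14_3IAA, against 278, 234 and 302 in Med14_DMSO, at 1.02 ± 0.07, and RET1 of RNA polymerase III had 0.99, while RPC19, shared by both enzymes, did not pass the test. Cytoplasmic ribosomal protein genes were nearer to the typical gene. Of 134 tested, 57 rose and 5 fell, with a median relative change of 0.20, from RPL8A (−0.71 ± 0.10) to RPL18B (1.37 ± 0.18). Of 43 mitochondrial ribosomal protein genes, 14 rose and 4 fell (median 0.18), so the share that rose was close to the 29.4% of all genes tested, from MRP8 (−0.51 ± 0.12) to RSM24 (0.70 ± 0.10). Of 20 tRNA synthetase genes 16 rose and 0 fell (median 0.36), with CDC60, the leucyl enzyme, at 0.67 ± 0.08 and KRS1, the lysyl enzyme, at −0.08 ± 0.12. Translation factors were split, with 16 of 34 up and 5 down (median 0.20). EFT1, for elongation factor EF-2, had 0.69 ± 0.11, and HYP2, for eIF5A, had 23.9, 20.3 and 26.1 in Med14_3IAA, against 203, 182 and 219 in Med14_DMSO, a relative change of −1.07 ± 0.10. Members of near-identical pairs, such as RPL8A, RPL18B, EFT1, the histone genes and the TDH genes, are uncertain singly, because reads that fit both copies may have been split or dropped.

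Most genes of protein folding and stress fell. Of 27 targets of the heat shock factor Hsf1 tested, 20 fell and 0 rose, against 27.0% and 29.4% of all genes tested. Their median relative change was −0.85 and their median deposited change −2.83. After HSP82, the lowest were HSP42 (−2.37), a small heat shock protein, SSA1 (−2.34), an Hsp70, and STI1 (−1.82), a co-chaperone. CPR7 had 0.32 ± 0.14, SSA4 0.11 and CDC37 −0.05, so the list was not uniform. CPR7 passed only with the replicate block (adjusted p = 0.0395 by limma). Of 20 genes of the general stress response under Msn2 and Msn4, 12 fell and 1 rose (median −1.07). TSL1 of trehalose synthesis fell (−2.25 ± 0.39), and so did HXK1, a hexokinase (−2.34 ± 0.39). HXK1 had 2.71, 0.99 and 1.72 in Med14_3IAA, against 104, 23.9 and 60.2 in Med14_DMSO. Library A was the highest within each group. For each library, the median over the list of each gene's deviation from its group mean was taken on the log2 scale. It was 0.27, −0.10 and −0.17 in Med14_3IAA libraries A, B and C, against 0.86, −0.73 and −0.10 in Med14_DMSO. The stress list thus varied between control libraries by more than its median change, and the part of this spread in its calls was not tested. SSA3, an Hsp70, was the member that rose (1.05 ± 0.11). Proteasome genes shifted by less, with 19 of 33 down and 1 up (median −0.24). PRE3, a catalytic subunit, was lowest (−0.57 ± 0.11), and RPN4, the activator of proteasome genes, rose (0.45 ± 0.10).

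The alpha-specific genes, which define the mating type of the strain, fell. Of 4 such genes 3 were tested and all 3 fell: MF(ALPHA)1, STE3 and SAG1, with a median relative change of −2.56. SAG1, the alpha agglutinin, had 8.19, 8.22 and 6.95 in Med14_3IAA, against 59.6, 57.1 and 67.6 in Med14_DMSO, and its relative change of −0.85 ± 0.10 was smaller than those of the pheromone and the receptor. MF(ALPHA)2 was below the filter, with 0.2, 0.7 and 0.38 in Med14_3IAA, against 11.8, 24.1 and 20.03 in Med14_DMSO, so the depleted libraries were close to 0. The pheromone signalling pathway, used by both mating types, was split. Of 19 genes tested 7 rose and 3 fell (median 0.15), against 29.4% and 27.0% of all genes tested. AGA1, an agglutinin anchor, had 0.88 ± 0.10, and DIG1, which restrains the factor Ste12, had −0.61 ± 0.08. Of the a-specific list only AXL1, a protease made in haploids of both mating types, passed the filter, with a relative change of 0.80 ± 0.09. STE6 had 2.25, 1.93 and 1.41 in Med14_3IAA, against 9.68, 7.07 and 9.09 in Med14_DMSO, and STE2 2.4, 1.5 and 1.67 in Med14_3IAA, against 2.17, 1.43 and 1.98 in Med14_DMSO.

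Genes of daughter cell separation fell widely, 13 of 16, with 2 up (median −1.05), against 27.0% down and 29.4% up over all genes tested. After PRY3 and DSE2 came EGT2 (−1.99), SCW11 (−1.41), DSE4 (−1.22) and the chitinase CTS1 (−1.14), which open the septum. The 2 members that rose were CBK1 (0.33), a protein kinase, and MOB2 (0.49 ± 0.10), its partner subunit. Of 30 cell wall genes 21 fell and 1 rose (median −0.66). GAS1, a glucan-remodelling enzyme, had 23.02, 21.8 and 23.1 in Med14_3IAA, against 341, 293 and 382 in Med14_DMSO, at −1.85 ± 0.08. CWP1, HSP150 and CIS3, all mannoproteins of the wall, had −1.39, −1.39 and −1.33. TIP1, another mannoprotein, went the other way, with 37.5, 35.97 and 40.2 in Med14_3IAA, against 58.5, 41.8 and 52.98 in Med14_DMSO, a relative change of 1.57 ± 0.10.

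Of 10 histone genes 8 fell and 0 rose (median −0.64), and the values of genes for the same protein are given side by side, with no test of the difference within a pair. HHT2, for histone H3, had 19.1, 16.9 and 13.5 in Med14_3IAA, against 336, 305 and 347 in Med14_DMSO, a relative change of −2.27 ± 0.10, while HHT1, the other H3 gene, had −0.26. For H4, HHF2 had −1.68 and HHF1 −0.12. For H2B, HTB2 had −1.58 and HTB1 −0.75, and for H2A, HTA2 had −0.52 and HTA1 −0.07 ± 0.08. HTA1 and HHF1 did not pass the test. Cyclins and other cell-cycle switches mostly stayed near the typical gene, with 9 of 28 down and 2 up (median −0.12). The share that fell was close to the 27.0% of all genes tested. CLB1, a mitotic cyclin, was lowest (−1.26 ± 0.10), followed by the transcription factors MCM1 (−1.20) and FKH2 (−0.93), and CDC20, an activator of the anaphase-promoting complex, was highest (0.44 ± 0.12).

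Glycolysis fell almost as a whole. Of 17 genes tested 16 fell and 0 rose, with a median relative change of −0.86. TDH1 (−1.87), ENO1 (−1.78), GLK1 (−1.62) and TPI1 (−1.29) were the lowest after HXK1, and HXK2, the main hexokinase on glucose, had 69.6, 74.2 and 73.4 in Med14_3IAA, against 304, 379.6 and 407 in Med14_DMSO, at −0.32 ± 0.15 (adjusted p = 0.0945, and 0.00383 with the replicate block, by limma). Genes of fermentation and acetate were mixed, with 4 of 10 down and 1 up (median −0.26), or 5 down and 2 up with the replicate block. Over all genes tested, 27.0% were down and 29.4% up without the block. ALD6, which makes acetate, had 59.8, 86.8 and 83.9 in Med14_3IAA, against 961, 1215 and 1415 in Med14_DMSO, a relative change of −1.96 ± 0.22, and PDC2, an activator of pyruvate decarboxylase genes, had 0.82 ± 0.09. Among 7 hexose transport genes tested 2 rose and 3 fell (median 0.15). MIG1, the glucose repressor, had −1.07 ± 0.09, and STD1, a glucose-signalling regulator, 0.44 ± 0.10. The median of this list was negative without Med14_3IAA library A (−0.18), B (−0.30) or C (−0.31) and without Med14_DMSO library A (−0.06).

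Lipid genes fell in both lists. Of 24 ergosterol genes 18 fell and 1 rose (median −0.57), against 27.0% and 29.4% of all genes tested. The 1 that rose was ERG8, the phosphomevalonate kinase (0.34 ± 0.12), whose call was lost without any one of Med14_3IAA libraries B and C or the 3 Med14_DMSO libraries (0.26 to 0.39). ERG6, a late enzyme of the pathway, had 8.5, 10.6 and 9.89 in Med14_3IAA, against 122, 144 and 142 in Med14_DMSO, at −1.70 ± 0.16, and ERG25 (−1.44) and ERG3 (−1.42) followed. The activators of the pathway, UPC2 (0.08) and ECM22 (−0.11), did not pass the test. Of 21 phospholipid genes 12 fell and 1, the ethanolamine kinase gene EKI1, rose (median −0.68), with CHO2 at −1.61 and OPI3 at −1.58, both of phosphatidylcholine synthesis. EKI1 had 0.32 ± 0.10 and lost its call without Med14_3IAA library A or C or Med14_DMSO library A or C (0.26 to 0.31). INO1, which makes inositol phosphate, had 11.7, 4.57 and 4.21 in Med14_3IAA, against 405, 45.7 and 88.6 in Med14_DMSO. Library A was again the highest within each group, and the relative change of −2.07 ± 0.63 lost its call without Med14_3IAA library B (−1.94) or library C (−1.88). Of 17 drug efflux genes 12 fell and 1 rose (median −0.66), or 14 and 2 with the replicate block. PDR5, the main multidrug pump, had 37.7, 43.6 and 44.97 in Med14_3IAA, against 780.5, 689.8 and 877 in Med14_DMSO, at −2.20 ± 0.12, and SNQ2 had −2.04, while PDR12 was the member that rose without the block.

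Nutrient pathways fell in part. Of 11 zinc genes 6 fell and 0 rose (median −0.70), led by ZRT1, and ADH4 had 0.26 ± 0.31. The zinc median was −0.45 without Med14_DMSO library A. Of 15 phosphate genes 8 fell and 0 rose (median −0.46), with PHO84, the phosphate transporter, at −1.69 and PHM8 lowest (−1.77 ± 0.37), while PHO2, an activator of the pathway, had 0.36 ± 0.16 and passed only with the replicate block (adjusted p = 0.0155 by limma). Of 24 iron genes 7 fell and 4 rose (median −0.35), a share of falls close to the 27.0% of all genes tested, and with the replicate letter as a block 14 fell and 5 rose. FET3, the ferroxidase of iron uptake, had 47.7, 62.6 and 51.97 in Med14_3IAA, against 602, 887 and 901 in Med14_DMSO, at −1.86 ± 0.21. FIT3, a wall protein that holds siderophores, had 59.3, 142 and 123 in Med14_3IAA, against 89.4, 247 and 245 in Med14_DMSO, a relative change of 1.19 ± 0.47 that passed only with the replicate block (adjusted p = 3.69e-08 by limma, against 0.0554 without it). Library A was the lowest within each group in FIT3, and over the iron list the A libraries deviated by a median of −0.34 in Med14_3IAA and −0.47 in Med14_DMSO.

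Of 14 sulfate and methionine genes 8 fell and 1 rose (median −0.50), with SAM2 and MET6 (−1.56) lowest and MET10, of sulfite reductase, highest (1.11 ± 0.09). The sulfate median was −0.31 without Med14_3IAA library A. Of 43 genes of amino acid synthesis under Gcn4, 9 rose and 12 fell (median −0.08), against 29.4% and 27.0% of all genes tested, from ARG3 (−1.69 ± 0.21) to ARO4 (0.73 ± 0.11), and the median was 0.12 without Med14_DMSO library A and −0.25 without Med14_3IAA library A. With the replicate block 12 rose and 19 fell. Of 16 purine genes 4 rose and 7 fell (median 0.07), and 7 rose and 7 fell with the replicate block. ADE17, of the last steps, had 1.77, 1.21 and 1.2 in Med14_3IAA, against 68.2, 27.2 and 42.7 in Med14_DMSO, at −2.23 ± 0.23, while its activator BAS1 had 0.94 ± 0.10. With 1 library left out the purine median ran from −0.06 to 0.16, and it was negative without Med14_3IAA library B and without Med14_DMSO library B or C. Of 20 respiratory chain genes 1 rose and 7 fell (median −0.17), against 29.4% and 27.0% of all genes tested. HAP1, the haem-responsive activator, had 26.4, 24.8 and 22.7 in Med14_3IAA, against 397, 375 and 447 in Med14_DMSO, at −2.01 ± 0.08. HAP4 had 0.85 ± 0.25 and was not called without Med14_3IAA library A (0.67).

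**Figure D3:**
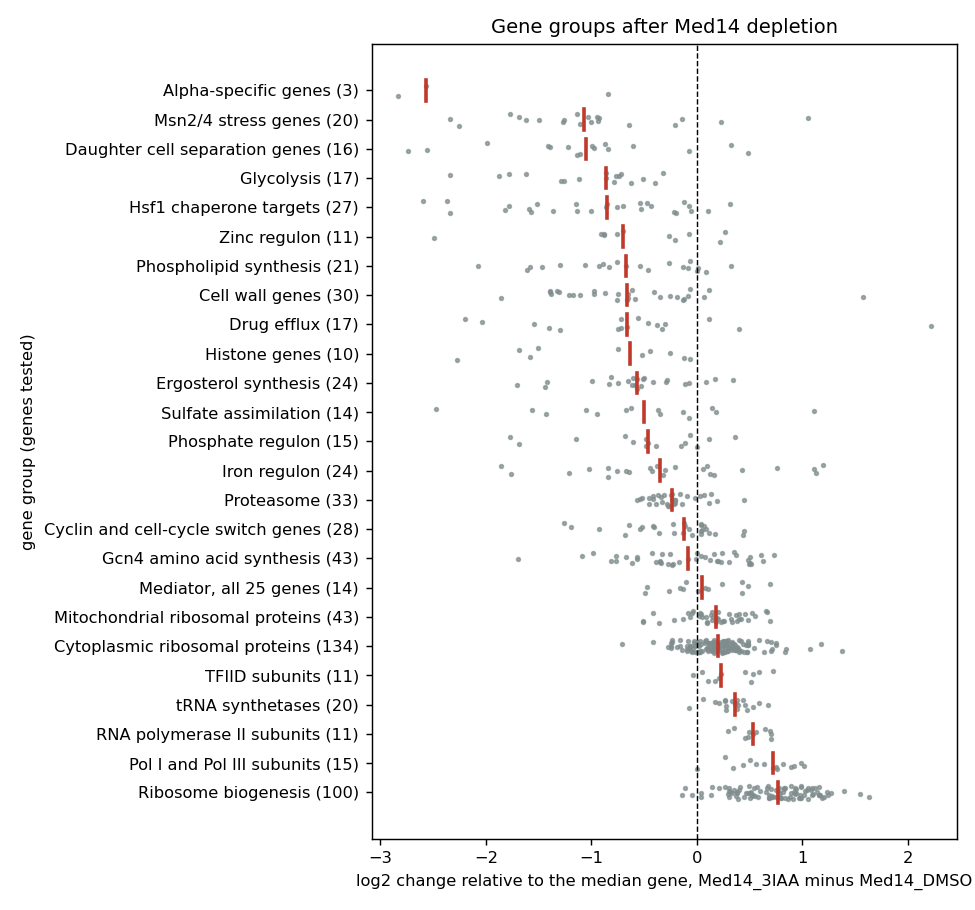
Each grey point is the log2 change of 1 gene relative to the median gene, Med14_3IAA minus Med14_DMSO, and each red bar is the median of the group, with the number of genes tested in brackets. Groups are ordered by their median, from the alpha-specific genes at −2.56 to ribosome biogenesis at 0.77, and the dashed line marks the median gene.

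The relative change varied with the level of a gene in control cells and with its upstream letters. With the genes cut into 5 equal classes by control signal per kilobase of coding length, the median relative change was 0.15, 0.05, 0.05, −0.03 and −0.21 from the lowest class to the highest. Control signal enters both measures, and the filter on mean signal acts most on the lowest class. Coding length made little difference, with medians from −0.01 to 0.04 over 5 classes of length. Genes with more than 1 coding exon, 157 in number, had a median of 0.16, with 62 up and 25 down. Leaving out those for ribosomal proteins, 69 remained, and their median was −0.16, with 14 up and 24 down.

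A TATA box match, one of TATAAAAA, TATAAAAG, TATAAATA, TATAAATG, TATATAAA, TATATAAG, TATATATA and TATATATG on either strand, stood in the 250 bases before the coding start of 33.5% of the genes tested. With the genes cut into 5 equal classes by relative change, from the most negative to the most positive, the share was 47.7%, 33.9%, 28.3%, 28.4% and 29.3%. The median relative change was −0.09 with a match and 0.06 without one. In the class of genes with the highest control level these medians were −0.45 and −0.08, and in the lowest class both were 0.15. PAC, GATGAG on either strand, stood in 17.6% of the windows, and over the same classes in 9.45%, 8.90%, 13.7%, 16.8% and 39.2%. The medians were 0.36 with PAC and −0.04 without it. PAC was present in 93 of the 100 tested ribosome biogenesis genes, and without that list its share in the most positive class was 32.5%. Over all genes with a window the shares were 36.2% for the TATA box and 16.7% for PAC.

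Sites of more specific factors were rarer than the TATA box and PAC. The heat shock element, read as TTC, GAA and TTC in a row or as GAA, TTC and GAA with any 2 bases between neighbours, was found in 33 windows, with medians of −0.19 with it and 0.02 without it. The core of the Rpn4 site, GGTGGCA, was found in 101, with medians of −0.22 with it and 0.03 without it. The Ste12 site TGAAACA was found in 212, with medians of 0.09 with it and 0.02 without it. All motifs were searched on both strands, and overlapping matches counted once per window.

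**Figure D4:**
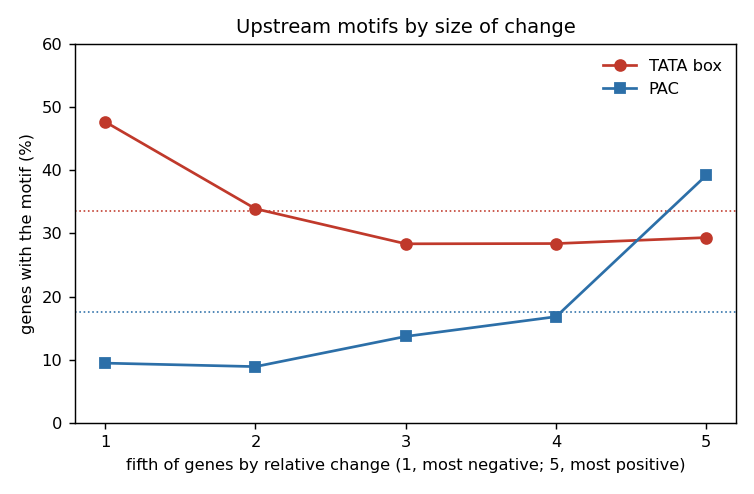
The points give the percentage of tested genes with a TATA box match (red circles) or PAC (blue squares) in the 250 bases before the coding start, in 5 equal classes of genes from the most negative to the most positive relative change, and dotted lines give the share over all genes tested. The TATA box is most frequent in the first class at 47.7%, and PAC in the last at 39.2%.

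The change after Med14 depletion was set beside that of 3 other degron strains, each with its own 3 libraries of 3IAA and 3 of DMSO and with the same shared alleles: Med17, with the mini degron on a head subunit, Med15, with the degron on a tail subunit, and Med14C. Med14C carried the same MED14 degron with 2 plasmids, a partial copy of RGR1 without the degron and a copy of MED14 with a mini degron. RGR1 showed the plasmids, with 411, 462 and 397 in Med14C_3IAA and 1275, 1335 and 1199 in Med14C_DMSO. On the deposited scale the median change was −1.96 for Med14, −1.66 for Med17, −1.79 for Med14C and 0.07 for Med15. Across genes, the relative changes of Med14 and the other strain had a Pearson r of 0.77 for Med17 (3360 genes), 0.81 for Med14C (3451) and 0.58 for Med15 (3524). These values describe genes of the same libraries, and genes are not independent replicates. Strain and any difference in when or how the libraries were made cannot be told apart.

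Against Med17, the Med14 change was more positive in 484 genes (12.4% of 3890) and more negative in 452 (11.6%), by limma on the difference between the relative changes. The difference was fitted on the genes that pass the filter over 12 libraries, so it can depart slightly from the subtraction of the separate changes. The most negative differences were in ADE17 (−2.16 ± 0.49), WSC4, a sensor of cell wall stress (−2.04 ± 0.18), and ZRT1 (−1.98 ± 0.13). ZRT1 in the Med17 strain had 44.8, 49.6 and 44.1 in 3IAA and 221, 207 and 207 in DMSO, so the relative change was −2.49 for Med14 and −0.52 for Med17. Daughter separation genes were more negative than with Med17 in 13 of 16 and ergosterol genes in 13 of 23, with 0 more positive in both. Ribosome biogenesis genes were more positive in 50 of 100, with medians of 0.77 for Med14 and 0.33 for Med17. HSP82 had relative changes of −2.59 with Med14 and −1.78 with Med17, and the chaperone list had medians of −0.85 for Med14 and −0.80 for Med17, with 8 of 27 genes more negative and 4 more positive than with Med17. With Med17 the relative changes of NRD1, HRP1 and RRN3 were 2.88, 2.52 and 1.55, each smaller than with Med14 (differences 0.68 ± 0.21, 0.84 ± 0.22 and 0.65 ± 0.15, adjusted p = 0.0295, 0.0130 and 0.00688). The control level of NRD1 differed between the strains, 37.4, 39.5 and 42.2 in Med14_DMSO against 128, 115 and 179.6 in Med17_DMSO. On the deposited scale 36 genes were more positive and 974 more negative than with Med17. The count of more positive genes on the relative scale was 295 without Med17_3IAA library C, 295 without Med17_DMSO library B and 308 without Med17_3IAA library A.

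Against Med14C, the Med14 change was more positive in 559 genes (13.9% of 4015) and more negative in 617 (15.4%), and on the deposited scale in 125 and 426. Of the ribosome biogenesis genes tested 72 of 100 were more positive and 0 more negative, with medians of 0.77 for Med14 and 0.25 for Med14C. UTP9 had 1.63 with Med14 and 0.58 with Med14C (difference 1.02 ± 0.15, adjusted p = 4.68e-04). Of 15 RNA polymerase I and III subunit genes 9 were more positive and 0 more negative. MF(ALPHA)1 was 101, 124 and 112 in Med14C_3IAA and 1092, 1130 and 1021 in Med14C_DMSO, a relative change of −1.43, less negative than with Med14 (difference −1.42 ± 0.11). HAP1 and PRY3 were also more negative with Med14, at differences of −1.31 ± 0.10 and −1.40 ± 0.14. Chaperone genes had medians of −0.85 for Med14 and −0.84 for Med14C, with 6 of 27 more negative with Med14 and 3 more positive. Daughter separation genes had −1.05 for Med14 and −0.95 for Med14C, with 5 of 16 more negative with Med14 and 0 more positive. Of 18 stress genes 2 were more negative with Med14 and 1 more positive, with a median difference of −0.31.

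Against Med15, where the typical gene did not fall on the deposited scale, the Med14 change was more positive in 625 genes (16.2% of 3867) and more negative in 605 (15.6%) relative to the median gene, and on the deposited scale in 3 and 3844. The relative changes of NRD1, HRP1 and SER3 with Med15 were 0.06, 0.03 and −0.41, and the differences were 3.48 ± 0.18, 3.32 ± 0.25 and 3.76 ± 0.18, the 3 most positive. HSP82 had 204, 187 and 119 in Med15_3IAA and 313, 189 and 149 in Med15_DMSO, a relative change of −0.37, and differed by −2.25 ± 0.27 (adjusted p = 6.22e-05). Of 27 chaperone genes 18 were more negative with Med14 and 0 more positive, with medians of −0.85 for Med14 and −0.03 for Med15. STE3 was more negative with Med14 (difference −1.91 ± 0.16), and so was MF(ALPHA)1, at −2.16 with Med15 (difference −0.69 ± 0.20).

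Some groups that fell with Med14 had medians as low or lower with Med15. Glycolysis had medians of −0.86 with Med14 and −1.34 with Med15, and 5 of 17 genes were less negative with Med14 and 0 more negative. Over all genes tested, 16.2% were more positive with Med14 and 15.6% more negative. ALD6 had relative changes of −1.96 with Med14 and −2.72 with Med15 (difference 0.73 ± 0.25, adjusted p = 0.0384). FET3 had −1.86 with Med14 and −1.89 with Med15, a difference with SE 0.26 that did not pass the test. Daughter separation genes had medians of −1.05 with Med14 and −1.11 with Med15, and 4 of 16 were more negative with Med14 and 2 more positive. PRY3 had −2.74 with Med14 and −1.95 with Med15. Among the 3524 genes tested in both, 270 fell relative to the median gene with Med15 and 952 with Med14. In both strains 219 fell. That is 81.1% of the 270, against 27.0% of all genes tested that fell with Med14. It is 23.0% of the 952, against 270 of all 3524 genes that fell with Med15. In those 270 genes the median deposited change was −2.94 with Med14 and −0.73 with Med15.

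**Figure D5:**
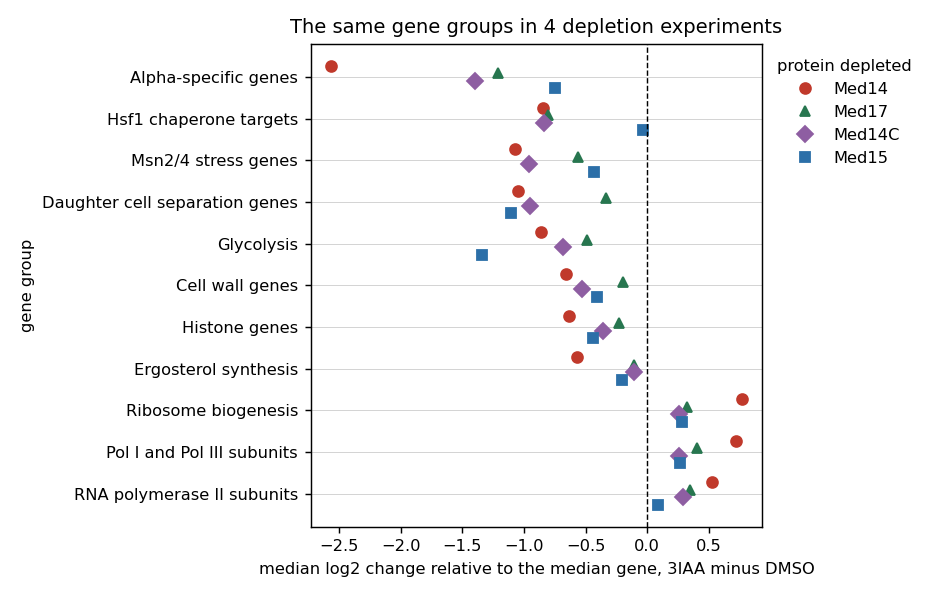
Each symbol is the median log2 change, 3IAA minus DMSO, of 1 gene group relative to the median gene, in Med14 (red circles), Med17 (green triangles), Med14C (purple diamonds) and Med15 (blue squares). Chaperone genes are at −0.85 for Med14, against −0.03 for Med15, glycolysis is lowest in Med15 at −1.34, and ribosome biogenesis is highest in Med14 at 0.77.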

How the data were processed

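RNA labelled with 4-thioU was sequenced from an Ovation Universal library kit, per the labels' protocols. Each library's file gives 1 signal value per gene, deposited by the authors after a scaling whose basis is not given in the sources used here. The tools Bowtie2 and HTSeq and the builds sacCer3 and ASM294v2 are named per the submitters' processing notes, without their roles. Strand use in counting is not stated, so overlapping and antisense genes are uncertain. Of 5794 genes 5792 were matched to the RefSeq R64 reference, which gave coordinates and upstream letters. In the low values of each library signal came in steps, and reads recovered from them were whole within the rounding tolerance of 0.0051 in 100% of values. Within 0.1 of a step this held for 100% in Med14_DMSO but for 36.9 to 51.5% in Med14_3IAA, so recovered reads served for alternatives.

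Genes whose 6 values averaged at least 10 were tested by limma 3.58.1 with a mean-variance trend on log2 of signal plus 1 in R 4.3.3, with Benjamini-Hochberg adjustment and a threshold of 0.05, as deposited and after subtracting each library's median. Differences between strains used 12 libraries each. The procedure was tested on simulated data. Alternatives were other pseudocounts and filters, no trend, the replicate letter as a block, each library left out, other scalings (upper quartile, TMM) and, chosen after seeing the data, edgeR 4.0.16 and DESeq2 1.42.0 on recovered reads. Same-letter libraries of Med14_3IAA and Med14_DMSO deviated together (r = 0.46 for A, 0.30 for B and 0.20 for C, all above 0.1). The letters were therefore taken as pairs, but only in the alternative with the replicate block. The main fits, with their counts, SEs and p-values, did not use the pairing. The deviations set A apart from B and C (r from −0.40 to −0.29) but not B from C (r = 0.25 for 3IAA C with DMSO B and 0.20 for 3IAA B with DMSO C). Values with the block stand beside some of the results whose call it changes. The genes named are those higher on the deposited scale, the 12 largest relative falls and 12 largest relative rises among called genes whose groups did not overlap on that scale, the extremes of each gene list, all Mediator, alpha-specific, early-termination and strain marker genes, and the 3 largest differences each way between strains. Others were chosen after their values were seen. The members and lists were chosen with earlier results of these data known.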

Additional observations from a re-analysis of the deposited data

Results flagged for a closer look

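Results that differed between the strains, by limma's test of the difference with Benjamini-Hochberg adjustment, are given here. The Med14 change relative to the median gene was more positive than the Med17 change in 484 genes and more negative in 452. Against Med14C the counts were 559 and 617, and against Med15 they were 625 and 605.

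The 3 most negative differences against Med17 were ADE17 at −2.16, WSC4 at −2.04 and ZRT1 at −1.98, and the 3 most positive were ROQ1 at 1.90, TIP1 at 1.63 and AAD4 at 1.51. ROQ1 and AAD4 had low signal in the Med14 strain. ROQ1 had 1.16, 0.4 and 0.82 in Med14_3IAA, against 6.72, 4.04 and 3.82 in Med14_DMSO, and AAD4 had 2.1, 3.04 and 2.8 in Med14_3IAA, against 3.97, 5.97 and 6.46 in Med14_DMSO.

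Against Med14C the most negative differences were FIT1 at −2.44, ARO10 at −1.95 and GCV1 at −1.95. FIT1, a wall protein of iron uptake, passed only narrowly (adjusted p = 0.0499). Its call was lost without any of 10 of the 12 libraries, with values from −2.60 to −1.79. FIT1 varied with library in the Med14 strain, with 2.88, 14.9 and 9.44 in Med14_3IAA, against 13.0, 86.1 and 63.1 in Med14_DMSO. The most positive differences were HMS1 at 3.82, PUT4 at 2.56 and AAD4 at 2.38. HMS1, a gene of filamentous growth, had 10.7, 5.4 and 6.18 in Med14_3IAA, against 3.4, 1.18 and 0.92 in Med14_DMSO, while the other strain had 11.0, 12.03 and 10.7 in Med14C_3IAA, against 46.95, 54.2 and 50.7 in Med14C_DMSO. PUT4, the proline permease, had 1.24, 3.39 and 2.47 in Med14_3IAA, against 2.53, 0.93 and 1.32 in Med14_DMSO, and 6.01, 8.22 and 8.88 in Med14C_3IAA, against 34.5, 32.8 and 37.9 in Med14C_DMSO. For both genes the control levels of the strains were far apart.

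Against Med15 the most negative differences were YNL134C at −2.31, HSP82 at −2.25 and AFB1 at −2.23, and the most positive were SER3 at 3.76, NRD1 at 3.48 and HRP1 at 3.32.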

How the results depend on the processing

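On the deposited scale the general fall kept its direction in every alternative. All of these alternatives kept the authors' scaling, so they could not test the part of the fall that rests on it. The median change was −1.62 with a pseudocount of 5, −1.81 with no filter and −2.10 at a mean signal of at least 50. With no filter 65 genes were higher and 5274 lower, and at a mean of at least 50, 2 were higher and 830 lower. With 1 library left out, 3 to 4 genes were higher, 3265 to 3713 lower, and the median ran from −2.05 to −1.91. Relative to the median gene, 2101 genes were higher and 1273 lower with no filter, so that 62.3% of called genes were higher, against 52.1% with the filter. At a mean of at least 50 the counts were 261 and 311, and with 1 library left out 814 to 1033 and 731 to 1032. On recovered reads edgeR called 1030 higher and 996 lower and DESeq2 999 and 987. limma and edgeR shared 1866 calls in the same direction and 0 in opposite directions.

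Among named genes, URA2 turned to −0.068 with a pseudocount of 5. With that pseudocount the median of translation factors was 0.0026 and that of cytoplasmic ribosomal proteins 0.08. At a mean of at least 50 the chaperone median was −1.44. The replicate block gave 1129 higher and 1079 lower genes relative to the median gene, and moved no count over all genes tested by more than 1.5 times. The block's value stands beside some of the gene lists and named genes whose calls it moved, but not beside all of them. Among the lists printed without it, the stress list had 12 lower genes without the block and 15 with it. The zinc list had 6 and 8 lower, and the respiratory chain list 7 and 9. Cytoplasmic ribosomal proteins had 57 higher and 5 lower without it, and 61 and 7 with it. In SAGA the higher genes went from 5 to 4. Fewer genes tested lowered the counts at a mean of at least 50.

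For the differences between strains, on the deposited scale the counts more positive and more negative were 36 and 974 against Med17, 125 and 426 against Med14C, and 3 and 3844 against Med15. At a mean of at least 50 they were 212 and 185, 186 and 235, and 177 and 213. With 1 library left out they ran from 295 to 523 and from 332 to 562 against Med17, from 400 to 679 and from 456 to 784 against Med14C, and from 454 to 610 and from 434 to 640 against Med15. The cause of these shifts was not tested. The 2251 genes under the filter were left untested.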

Other observations

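The 22 genes whose groups overlapped on the deposited scale, named here after their values were seen, were mostly of 2 kinds. In the first, new RNA was close to the control level. Beside the genes described in the report, these were TOD6, a repressor of ribosome assembly genes, NRG2, a glucose-responsive repressor, and RTP1, an assembly factor of RNA polymerase II. TOD6 had 22.9, 15.8 and 17.3 in Med14_3IAA, against 22.2, 25.3 and 28.99 in Med14_DMSO, a relative change of 1.54 ± 0.13. NRG2 had 26.3, 16.4 and 15.5 in Med14_3IAA, against 26.7, 23.1 and 26.8 in Med14_DMSO, at 1.57 ± 0.13, and RTP1 18.6, 14.5 and 14.8 in Med14_3IAA, against 22.8, 18.2 and 28.3 in Med14_DMSO, at 1.49 ± 0.11. In each, depleted library A lay within the control range and libraries B and C below it.

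In the second kind the spread between replicates was wide in at least 1 group. HSP12, a membrane protein of the stress response, had 1.26, 0.24 and 0.26 in Med14_3IAA, against 53.7, 1.18 and 11.7 in Med14_DMSO, a relative change of −0.93 ± 0.88 that did not pass the test with or without the replicate block. MSN4, an activator of the stress response, had 28.3, 11.2 and 10.8 in Med14_3IAA, against 76.5, 24.7 and 52.7 in Med14_DMSO, at 0.43 ± 0.36, which passed only with the replicate block (adjusted p = 0.0119 by limma), and GDB1, which breaks down glycogen, 28.7, 24.3 and 23.9 in Med14_3IAA, against 83.1, 17.9 and 39.9 in Med14_DMSO, at 1.38 ± 0.37. Library A was the highest within each group for these 3 genes. YAT2, of carnitine metabolism, was also highest in library A of each group, with 30.8, 10.8 and 12.3 in Med14_3IAA, against 59.1, 25.2 and 40.2 in Med14_DMSO. The iron uptake genes FIT1 and FRE3 ran the other way, with library A the lowest of each group. FRE3 had 4.05, 11.6 and 8.29 in Med14_3IAA, against 10.5, 16.7 and 17.1 in Med14_DMSO, at 1.11 ± 0.36.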
